A study of Mus musculus with 87 samples.

Results

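Haploid embryonic stem cells (ES cells) of the genotype labelled STOP were set directly against haploid ES cells of the genotype labelled TKO, a triple knockout of the Dnmt genes. The members were the 2 STOP libraries and the 3 TKO libraries of the haploid cell count table, which are 5 of the 8 haploid ES cell libraries and 5 of the 87 libraries of the series. All of them carry the label AG-haESC, the name of androgenetic haploid ES cells, whose single chromosome set comes from a sperm. The genotypes are given as Dnmt STOP, Dnmt TKO and Dnmt WT, and the sources used here do not say what the STOP allele is made of. The 3 WT libraries served to estimate the spread between libraries and are given as a further value beside many of the genes, though not all. Nothing in the labels says that libraries of one genotype came from separate cultures or clones, so the p values measure the spread between these libraries, which may be technical.

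Polyadenylated RNA was sequenced, and reads per gene were counted by the authors. Library totals ranged from 16.8 to 24.5 M counts. Values below are counts per M of each library's total (CPM), and a log2 fold change is STOP over TKO, fitted with edgeR's quasi-likelihood test, with its standard error (SE). A gene was called when its p, adjusted by the Benjamini-Hochberg method over all 14959 genes tested, was under 0.05. TKO replicate 3 stood apart from the other TKO libraries. The chi-square per degree of freedom over genes was 73.9 between TKO replicates 1 and 3, 44.7 between TKO replicates 2 and 3 and 17.9 between TKO replicates 1 and 2, against 7.07 between the STOP libraries and 4.39 to 5.96 among WT libraries. Medians of gene lists, and calls that changed without it, are given with and without it.

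DNA methylation in mammals is placed on cytosines of CpG dinucleotides. Dnmt1 copies the mark onto the new strand after replication, and Dnmt3a and Dnmt3b place it on unmethylated DNA, helped by the catalytically inactive partner Dnmt3l. Uhrf1 brings Dnmt1 to newly replicated sites. In mouse ES cells, loss of all 3 enzymes is tolerated, while germ cell genes, imprinted genes and the Rhox genes of the X chromosome depend on the mark for their silencing.

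Stretches before the RefSeq start of 5 genes are shown first, because the results turn on them: Nt5c was called higher in STOP cells, Armc7 and Jpt1 are its neighbours and were not called, Plb1 had the largest called fold change, and Dazl is a germ cell gene that was higher in both mutants than in WT. Each is the plus or minus strand of RefSeq's GRCm38.p6, 5′ to 3′, from 250 to 51 bases before the annotated start, with CpG dinucleotides in capitals. The stretches lie at chr11:115491865-115492064 (minus strand) for Nt5c, chr11:115475417-115475616 (plus strand) for Armc7, chr11:115514444-115514643 (minus strand) for Jpt1, chr5:32238834-32239033 (plus strand) for Plb1, where the more upstream of its 2 RefSeq starts was used and the stretch lies inside the gene as GENCODE annotates it, and chr17:50293671-50293870 (minus strand) for Dazl.
Nt5c: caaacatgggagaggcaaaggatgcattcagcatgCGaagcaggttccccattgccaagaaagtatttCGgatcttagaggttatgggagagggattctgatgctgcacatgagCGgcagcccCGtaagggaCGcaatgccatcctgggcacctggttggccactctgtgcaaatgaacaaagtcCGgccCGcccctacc
Armc7: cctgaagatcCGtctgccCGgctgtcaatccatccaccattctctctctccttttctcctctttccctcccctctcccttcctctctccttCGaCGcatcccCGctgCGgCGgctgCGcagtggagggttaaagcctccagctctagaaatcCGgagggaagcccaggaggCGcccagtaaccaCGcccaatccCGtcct
Jpt1: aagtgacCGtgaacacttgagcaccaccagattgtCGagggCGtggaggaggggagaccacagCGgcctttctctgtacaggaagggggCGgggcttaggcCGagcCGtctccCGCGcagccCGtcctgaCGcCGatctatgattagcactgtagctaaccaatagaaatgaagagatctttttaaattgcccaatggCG
Plb1: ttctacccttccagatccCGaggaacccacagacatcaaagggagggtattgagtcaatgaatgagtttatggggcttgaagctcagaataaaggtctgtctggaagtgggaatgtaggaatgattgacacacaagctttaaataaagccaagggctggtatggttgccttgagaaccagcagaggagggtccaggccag
Dazl: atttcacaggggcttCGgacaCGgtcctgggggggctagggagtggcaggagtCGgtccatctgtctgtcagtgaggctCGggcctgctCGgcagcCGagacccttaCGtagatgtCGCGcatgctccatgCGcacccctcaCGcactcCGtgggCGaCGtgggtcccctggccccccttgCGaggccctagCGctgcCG
The motif searched was CG, which reads the same on both strands. Nt5c had 7 in these 200 bases, Armc7 12, Jpt1 13, Plb1 1 and Dazl 17. Of all 32851 RefSeq promoter windows of this length, 38.3% held at least as many as Nt5c, 24.3% at least as many as Armc7, 22.1% at least as many as Jpt1, 89.1% at least as many as Plb1 and 14.0% at least as many as Dazl. Methylation itself was not measured in these files.

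Few genes passed the test between the mutants. Of 14959 genes tested, 6 were higher in STOP than in TKO and 0 were lower, which is 0.0401% of those tested. The 6 genes were Dnmt1, Dnmt3a, Dnmt3b, Nt5c, the processed pseudogene Gm11694 and Plb1. At an unadjusted p under 0.05, edgeR's test gave 439 genes (2.93%), of which 172 (1.15%) were higher and 267 (1.78%) lower in STOP, and DESeq2 called 8 higher and 2 lower after adjustment. The genes that DESeq2 added were Armc7 and Jpt1 (higher) and Fgf10 and Arhgap6 (lower), none of them in a gene list used here. Arhgap6 had 0.371 and 0.252 CPM in STOP, against 3.33, 0.808 and 20.04 CPM in TKO and 0.613 to 1.28 CPM in WT, and its log2 fold change was -4.79 with all libraries and -2.71 without TKO replicate 3 (adjusted p = 0.902 and 0.536 by edgeR's test, 0.00561 by DESeq2 with all libraries). Without TKO replicate 3, edgeR called 10 genes, all higher, and those added were Jpt1, Erdr1, Peg10 and Mep1b. Both STOP libraries lay above all 3 TKO libraries for 1457 genes (9.74%) and below all of them for 905 (6.05%). These counts used CPM without edgeR's TMM scaling factors, which were 1.03 and 1.05 in STOP and 1.05, 1.02 and 0.946 in TKO. Unscaled CPM thus place TKO replicate 3 lower against STOP than the fit does. In the fit, which is scaled, 7200 genes (48.1%) had a log2 fold change above 0 and 7759 below 0. The median log2 fold change over all genes tested was -0.01. Set against the WT libraries, which both comparisons share, STOP had 2062 genes called higher (13.8%) and 1401 called lower (9.37%), and TKO had 1471 called higher (9.83%) and 706 called lower (4.72%).

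**Figure D1:**
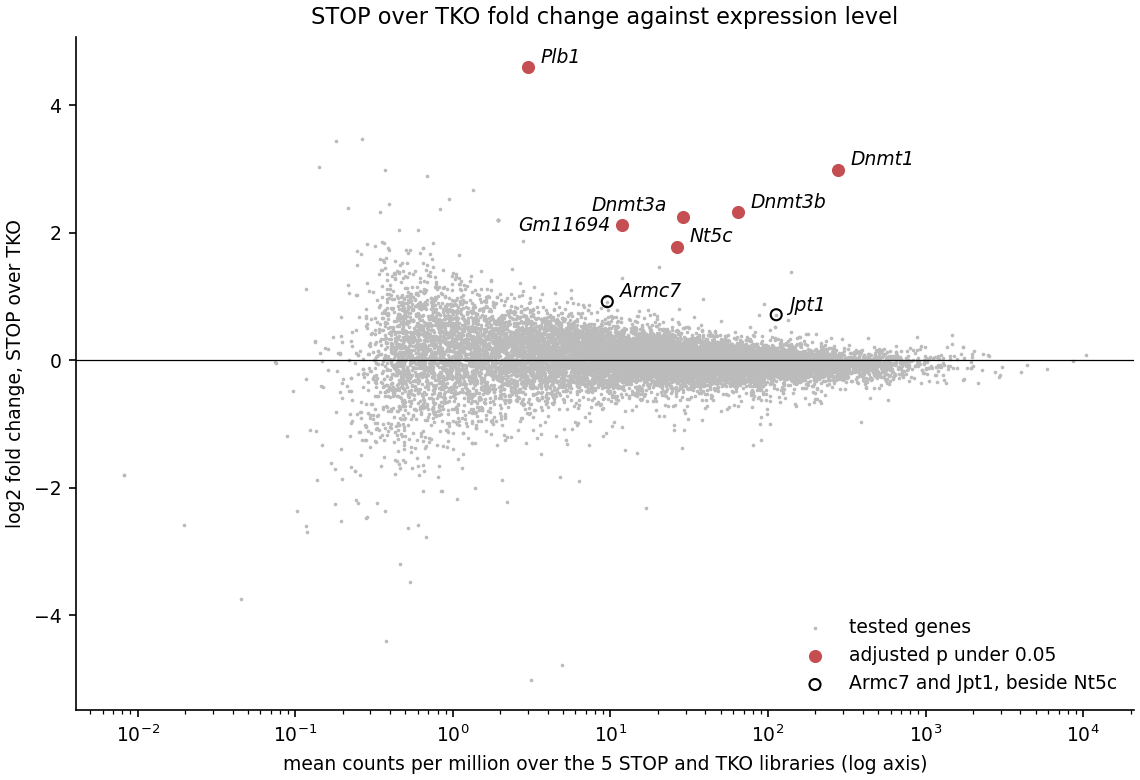
Log2 fold change of STOP over TKO (vertical axis) against the mean CPM over the 5 STOP and TKO libraries (horizontal log axis), 1 point for each of 14959 genes tested. The 6 called genes (red) all lie above 0, and Armc7 and Jpt1 (open circles), which flank Nt5c, were not called.

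The targeted genes separated the genotypes. Dnmt1 (chr9:20907209-20959888, minus strand) had 572.2 and 601.1 CPM in STOP libraries, against 70.4, 74.0 and 68.8 CPM in TKO libraries and 418 to 425 CPM in WT libraries. Its log2 fold change was 2.99 ± 0.08 (SE), a 7.95-fold higher level in STOP (adjusted p = 3.5e-07, edgeR's quasi-likelihood test). Every STOP library therefore lay above every TKO library and also above every WT library. Dnmt3b had 128.2 and 122.1 CPM in STOP, against 23.7, 26.9 and 21.8 CPM in TKO and 126 to 149 CPM in WT, a log2 fold change of 2.32 ± 0.11 (SE, adjusted p = 5.0e-05). Dnmt3a had 56.5 and 54.9 CPM in STOP, against 11.9, 10.5 and 11.5 CPM in TKO and 64.4 to 75.0 CPM in WT, a log2 fold change of 2.25 ± 0.11 (SE, adjusted p = 5.07e-05). For all 3 enzymes the STOP and TKO libraries did not overlap. Set against WT, the log2 fold change of STOP was -0.41 for Dnmt3a (adjusted p = 0.0336), -0.22 for Dnmt3b (adjusted p = 0.17) and 0.38 for Dnmt1 (adjusted p = 0.0127). TKO over WT was -2.62 for Dnmt1, -2.65 for Dnmt3a and -2.54 for Dnmt3b (adjusted p of 6.4e-07, 6.9e-06 and 6.9e-06). RNA was still counted for all 3 genes in TKO libraries, and which exons those reads cover cannot be read from counts per gene. Protein was not measured.

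The partners of these enzymes showed no such gap. Dnmt3l had 94.8 and 114 CPM in STOP, against 123, 67.1 and 101 CPM in TKO, and its log2 fold change was 0.06 ± 0.22 (SE). Uhrf1 had 674 and 629 CPM in STOP, against 633, 700 and 616 CPM in TKO, with a log2 fold change of -0.05 ± 0.08 (SE). For Uhrf2, a relative of Uhrf1, the log2 fold change was 0.12 ± 0.14 (SE). The libraries of both genotypes overlapped for all 3 partners. None of the 8 genes of the Tet and base excision list, which remove the mark, was called, and their median log2 fold change was 0.06 (0.00 without TKO replicate 3). Of these, Tet1 had 675 and 661 CPM in STOP, against 690, 719 and 812 CPM in TKO. Tet2 had 134 and 142 CPM in STOP, against 117, 132 and 337 CPM in TKO and 364 to 419 CPM in WT, so TKO replicate 3 alone was near WT. Of 24 readers of methylated CpG and heterochromatin factors, 0 were called, with a median of -0.06 (-0.02 without TKO replicate 3), and the smallest p belonged to Zfp57, which guards imprints in mouse ES cells (log2 fold change -0.43 ± 0.20, SE, unadjusted p = 0.0664 by edgeR's test).

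**Figure D2:**
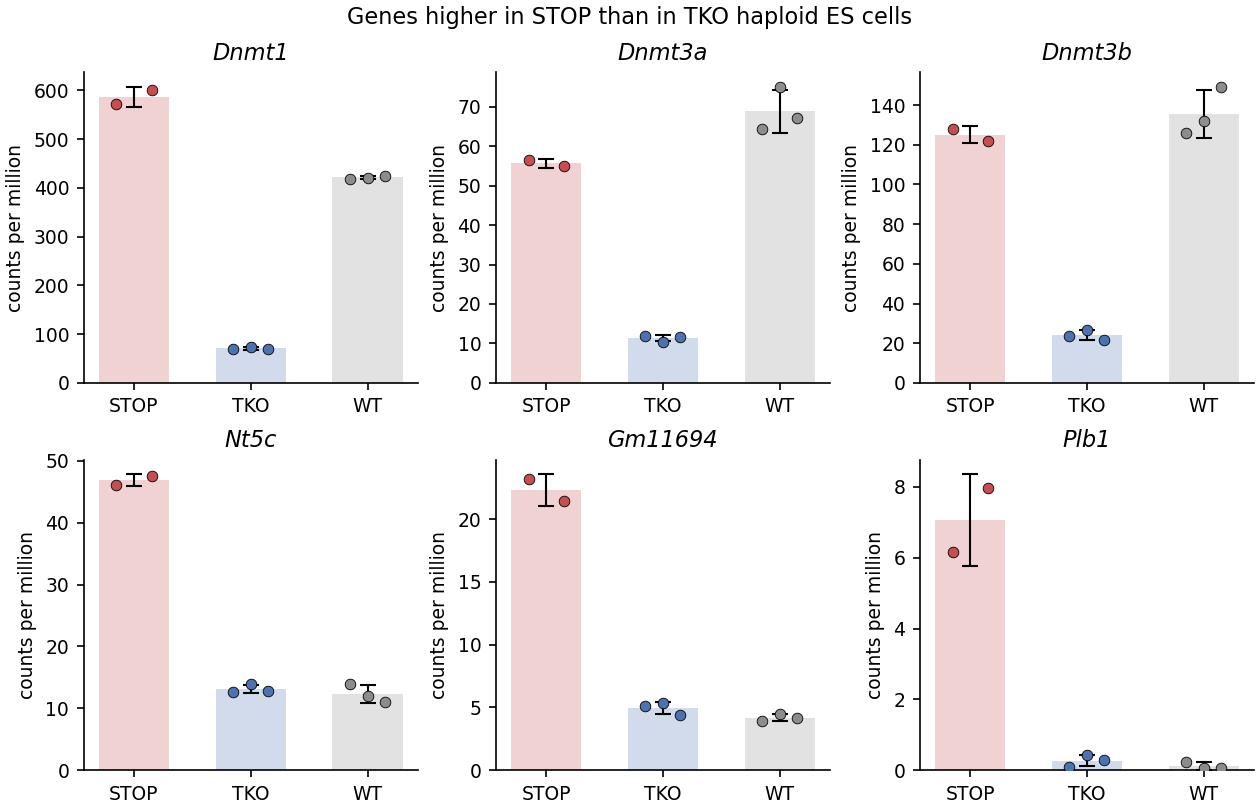
CPM of the 6 called genes in each library (points), with the group mean (bars) and SD (error bars), for STOP (n = 2), TKO (n = 3) and WT (n = 3) haploid ES cells. STOP libraries lie above every TKO library in each panel, while WT libraries lie closer to STOP than to TKO for the Dnmt genes and closer to TKO for Nt5c, Gm11694 and Plb1.

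The other called genes, Nt5c, Gm11694 and Plb1, were higher in STOP cells than in either other genotype. Nt5c, a cytosolic nucleotidase that removes the phosphate from deoxyribonucleotides, lies at chr11:115490420-115491862 (minus strand). It had 46.2 and 47.6 CPM in STOP, against 12.6, 13.9 and 12.9 CPM in TKO and 10.97 to 13.9 CPM in WT. The log2 fold change was 1.78 ± 0.14 (SE, adjusted p = 0.00132, edgeR's quasi-likelihood test), a 3.44-fold higher level. The TKO and WT libraries overlapped, and TKO over WT was 0.05 (adjusted p = 0.825), while STOP over WT was 1.83 (adjusted p = 0.000626). Gm11694, a processed pseudogene at chr11:115493024-115493182 (plus strand), begins 1161 bases beyond Nt5c. It had 23.2 and 21.5 CPM in STOP, against 5.10, 5.32 and 4.42 CPM in TKO and 3.93 to 4.48 CPM in WT, and its log2 fold change was 2.12 ± 0.17 (SE, adjusted p = 0.00132), while STOP over WT was 2.31 (adjusted p = 0.00054). Its call did not hold when STOP and TKO were fitted without WT (adjusted p = 0.0534) or without STOP replicate 1 (adjusted p = 0.0671). Whether the counting used strand is not stated, so reads of Gm11694 and of transcripts crossing it cannot be told apart.

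Genes on both sides of this pair had fold changes of the same sign and did not pass the test. Armc7, an armadillo repeat protein gene on the opposite strand, overlaps the end of Nt5c by 48 bases. It had 14.4 and 12.6 CPM in STOP, against 7.47, 6.94 and 6.30 CPM in TKO and 6.20 to 6.88 CPM in WT. Its log2 fold change was 0.92 ± 0.17 (SE), with an unadjusted p of 0.000405 and an adjusted p of 0.758 by edgeR's test. Jpt1, the gene of a microtubule-associated protein on the far side of Gm11694 with 4170 bases between them, had 164 and 135 CPM in STOP, against 93.9, 88.2 and 82.1 CPM in TKO and 94.5 to 105 CPM in WT. Its log2 fold change was 0.71 ± 0.10 (SE, adjusted p = 0.159 by edgeR's test). Both STOP libraries were above all TKO and all WT libraries for both genes. DESeq2 called both (adjusted p = 0.0017 for Armc7 and 1.2e-05 for Jpt1), and without TKO replicate 3 edgeR called Jpt1 (adjusted p = 0.0332). The run from Armc7 to Jpt1 spans 38.7 kb. On its far side Sumo2, the gene of a small ubiquitin-like modifier, lies 8714 bases beyond Jpt1 and had a log2 fold change of 0.01 ± 0.15 (SE). Slc16a5, of the monocarboxylate transporter family, lies 1268 bases before Armc7. It had 6.15 and 6.77 CPM in STOP, against 4.70, 5.61 and 2.00 CPM in TKO and 0.885 to 1.43 CPM in WT. Its log2 fold change was 0.62 ± 0.38 (SE, unadjusted p = 0.139 by edgeR's test). Both mutants were called higher than WT for Slc16a5 (adjusted p = 0.00761 in STOP and 0.0169 in TKO by edgeR's test). Within 300 kb of Nt5c, 22 genes were tested, of which 2 were called and 6 had an unadjusted p under 0.05, against 2.93% of all genes. The window was placed on Nt5c because it was called, and the 6 include Nt5c and Gm11694. The share is therefore a description and not a test of the region. The median log2 fold change over the 20 genes that were not called was 0.07, against -0.01 over all genes. The further genes at an unadjusted p under 0.05 were Grin2c, with at most 1.16 CPM in any library, and Hid1, with 6.94 and 8.08 CPM in STOP, against 4.80, 5.08 and 1.80 CPM in TKO.

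**Figure D3:**
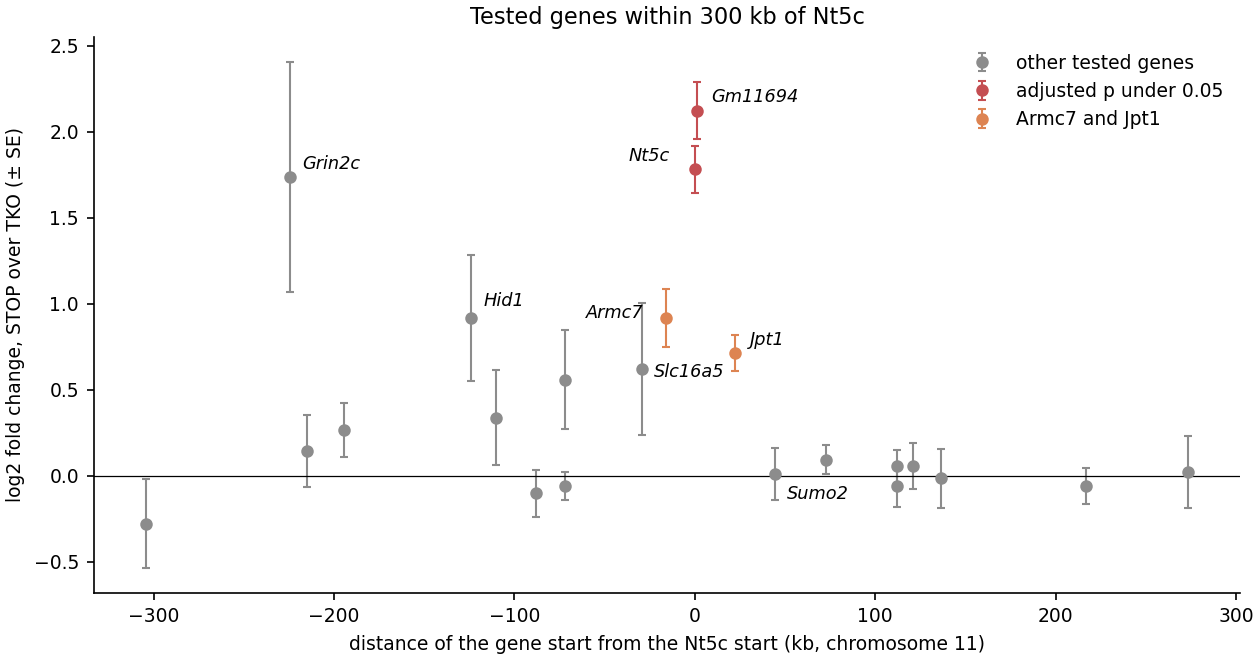
Log2 fold change of STOP over TKO with its SE (vertical axis) for the 22 tested genes within 300 kb of Nt5c, placed by the distance of each gene start from the Nt5c start in kb. Nt5c and Gm11694 (red) stand at 1.78 and 2.12, Armc7 and Jpt1 (orange) at 0.92 and 0.71, and Sumo2, next along the chromosome, at 0.01.

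Plb1 (chr5:32232708-32366520, plus strand), a phospholipase known from the intestinal brush border, had 6.15 and 7.98 CPM in STOP, against 0.101, 0.428 and 0.286 CPM in TKO and 0.047 to 0.238 CPM in WT. In counts, that was 116 and 158 reads in STOP, against 2, 9 and 7 reads in TKO and 4, 1 and 1 reads in WT. The STOP libraries were thus well above all others, which were close to 0. The log2 fold change was 4.60 ± 0.54 (SE, adjusted p = 0.036, edgeR's quasi-likelihood test), and STOP over WT was 5.90 (adjusted p = 0.00183). The call was lost without STOP replicate 1 (adjusted p = 0.312), STOP replicate 2 (0.547), TKO replicate 2 (0.184), WT replicate 2 (0.101) or WT replicate 3 (0.105), and when STOP and TKO were fitted without WT (0.159). Its tested neighbours within 300 kb were Babam2, Fosl2 and Ppp1cb, and none was called, with log2 fold changes of -0.47 to 0.00. Of the 12 phospholipase genes tested, Plb1 was the 1 called, and the median log2 fold change was 0.03 (0.02 without TKO replicate 3). Pla2g15, a lysosomal phospholipase, had 20.2 and 19.7 CPM in STOP, against 15.7, 16.3 and 12.2 CPM in TKO (unadjusted p = 0.0251, edgeR's test). Of the 9 tested nucleotidases Nt5c was the 1 called, and the median was 0.01 (-0.03 without TKO replicate 3). Among these Nt5c2, a cytosolic purine nucleotidase, had 31.1 and 29.0 CPM in STOP, against 28.4, 32.5 and 35.7 CPM in TKO.

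Below the threshold, 67 genes were higher and 193 lower in STOP at an unadjusted p under 0.05 by edgeR's test. Predicted genes (Gm and Rik symbols) and pseudogenes were left out of these counts. The STOP and TKO libraries of the 67 and 193 did not overlap in unscaled CPM, with a mean in the higher genotype of 5 CPM or more. Over all genes tested, 172 (1.15%) were higher and 267 (1.78%) lower at that p. None of the 67 and 193 genes passed the test after adjustment. After Jpt1 and Armc7, those with the smallest p on the higher side were Atp6v1a, Prss42, Hps3, Erdr1, Npl, Vps26c, Dppa4 and Sync, with log2 fold changes of 0.33 to 1.47. Atp6v1a, Vps26c and Dppa4 (0.33, 0.55 and 0.33) lie on chromosome 16, whose 453 tested genes had a median of 0.12, and the part of that shift in their values was not tested. Atp6v1a, a subunit of the proton pump of lysosomes, had 323 and 364 CPM in STOP, against 263, 267 and 258 CPM in TKO. Hps3, which takes part in making lysosome-related organelles, had 49.9 and 16.7 CPM in STOP, against 12.2, 10.2 and 12.4 CPM in TKO, so the STOP libraries differed from each other more than STOP replicate 2 did from TKO. Erdr1 had 14.3 and 22.9 CPM in STOP, against 6.11, 5.04 and 10.5 CPM in TKO and 13.5 to 20.3 CPM in WT, and it was called without TKO replicate 3 (adjusted p = 0.0298 by edgeR's test). Dppa4, a nuclear protein of pluripotent cells, had 134 and 136 CPM in STOP, against 119, 95.0 and 96.2 CPM in TKO.

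On the lower side the smallest p belonged to Fgf10, a secreted growth factor. It had 6.10 and 6.92 CPM in STOP, against 12.4, 13.4 and 12.6 CPM in TKO and 8.05 to 10.99 CPM in WT, and its log2 fold change was -1.03 ± 0.20 (SE, unadjusted p = 0.000527, adjusted p = 0.877, edgeR's test). The 3 TKO libraries were all above the WT libraries and the STOP libraries all below them, and DESeq2 called the gene (adjusted p = 0.00243). The others were Ildr1, Noct, Mitf, Map1b, Gprc5a, Sfrp1, Akap2, Sh3gl2 and Pakap, with log2 fold changes of -0.88 to -0.35. Of these, Ildr1 (-0.53) also lies on chromosome 16, against the direction of that chromosome's median of 0.12. Akap2 and Pakap overlap and had nearly the same values, with 71.1 and 71.8 CPM in STOP replicate 1 and 92.8 and 94.4 CPM in TKO replicate 3. They are thus not separate measurements. Mitf, the transcription factor of melanocytes, had 37.3 and 39.2 CPM in STOP, against 50.3, 55.4 and 47.5 CPM in TKO and 21.3 to 26.6 CPM in WT. Sfrp1, a secreted inhibitor of Wnt signalling, had 218 and 203 CPM in STOP, against 247, 268 and 275 CPM in TKO and 298 to 326 CPM in WT. The order of genotypes thus differed between these genes, with STOP between TKO and WT for Mitf and TKO between STOP and WT for Sfrp1.

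Transcripts of the 2-cell embryo were low in all libraries, and none was called between the mutants. ES cells enter a state resembling the 2-cell embryo rarely, and it is marked by the Zscan4 family, by the Usp17l deubiquitinases and by related genes. Of 35 listed genes found, 18 passed the filter on low counts and 0 were called. At an unadjusted p under 0.05, 8 were higher and 0 lower by edgeR's test, against 1.15% and 1.78% of all genes. All 18 had a log2 fold change above 0, against 48.1% of all genes, with a median of 1.67 (2.89 without TKO replicate 3). Usp17la, Usp17le and Usp17lb were among those that passed the filter without the TKO libraries. Gm21761 passed it through STOP alone, the genotype where it was highest. It had 10 and 13 reads in STOP, against 1, 0 and 2 in TKO and 1, 3 and 6 in WT. Usp17lb had 3 and 13 reads in STOP, against 0, 2 and 0 in TKO and 22, 37 and 38 in WT. The counts, the signs and the median over the 18 are thus in part set by the filter. They cannot be read against the shares of all genes as a difference between the mutants. They are given as a description. Zscan4a had 0.954 and 4.54 CPM in STOP, against 0.404, 0.095 and 0.695 CPM in TKO and 1.31 to 2.71 CPM in WT. Usp17la had 0.53 and 1.06 CPM in STOP, against 0.051, 0.048 and 0.164 CPM in TKO and 0.536 to 0.984 CPM in WT, and its log2 fold change was 2.98 ± 0.67 (SE, unadjusted p = 0.00163, adjusted p = 0.902, edgeR's test). STOP replicate 2 was the highest STOP library for both genes and TKO replicate 3 the highest TKO library. Summed over the listed genes found, the level was 12.1 and 27.5 CPM in STOP, against 3.08, 2.80 and 11.7 CPM in TKO and 15.7 to 24.7 CPM in WT. In this sum every STOP library was above every TKO library, by a small margin over TKO replicate 3, and the STOP range took in the WT range. The median of the 18 tested genes, relative to their mean over all 8 libraries on the log2 scale, was -0.01 and 1.21 in STOP, against -1.40, -1.72 and 0.07 in TKO and 0.51 to 1.14 in WT, so on this measure TKO replicate 3 lay above STOP replicate 1. Most of these genes had under 3 CPM in every library, the family members share near-identical sequence, and how reads that map to several places were counted is not stated, so the 18 genes are not separate measurements. In bulk RNA, more cells in this state and more such RNA per cell cannot be told apart.

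**Figure D4:**
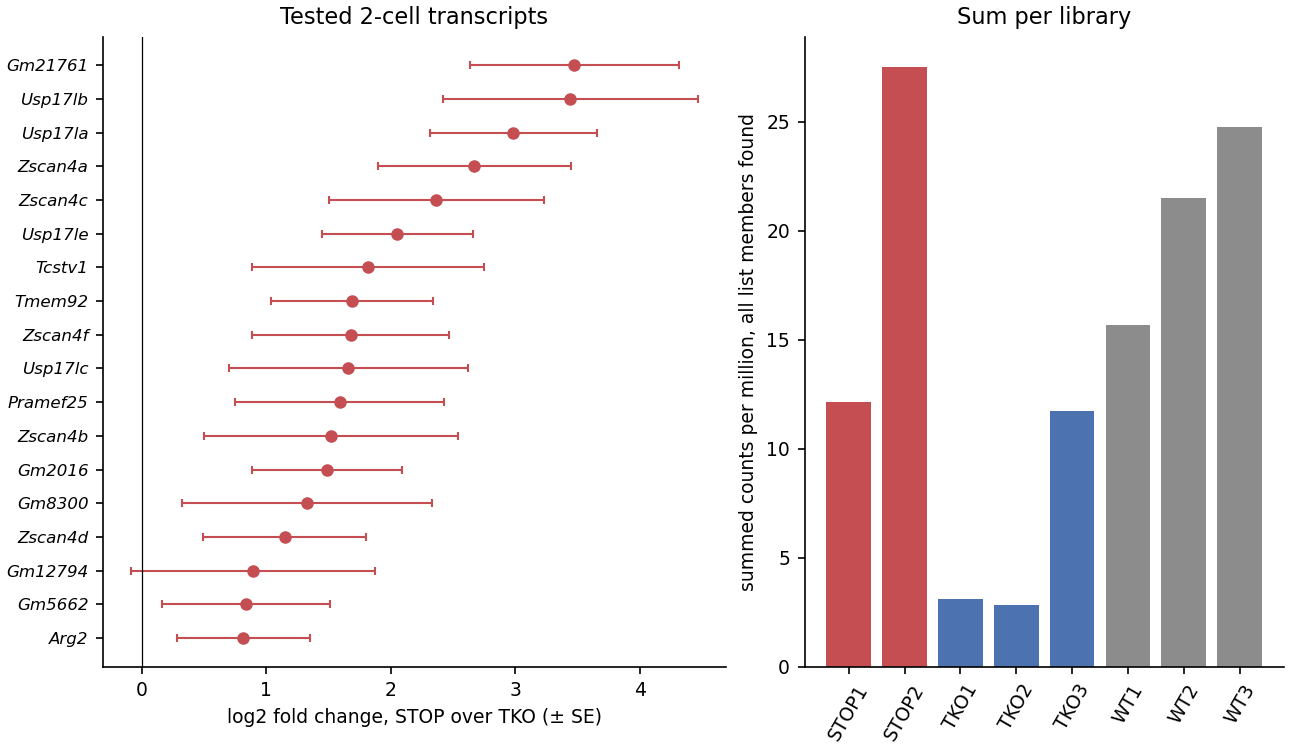
Left, log2 fold change of STOP over TKO with its SE for the 18 tested 2-cell transcripts. All lie above 0 and none was called, and the signs are in part set by the filter, which some genes passed without the TKO libraries. Gm21761 and Usp17lb rest on 1, 0 and 2 reads and on 0, 2 and 0 reads in the TKO libraries. Right, summed CPM of the listed genes found in each library, from 2.80 in TKO replicate 2 to 27.5 in STOP replicate 2.

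Of a list of germ cell genes described as silenced by promoter methylation, 0 of 38 tested were called between the mutants. Against the WT libraries, which both comparisons share, 14 rose and 1 fell in STOP, where 13.8% of all genes were called higher and 9.37% lower, and 11 rose and 2 fell in TKO, where 9.83% were called higher and 4.72% lower. Dazl, which binds RNA in germ cells, had 147 and 164 CPM in STOP, against 115, 148 and 182 CPM in TKO and 10.8 to 14.5 CPM in WT. Its log2 fold change was 0.00 ± 0.21 (SE), and STOP and TKO libraries overlapped while both lay above WT. Fkbp6, which acts in the piRNA pathway of the testis, had 25.3 and 25.3 CPM in STOP, against 18.9, 22.1 and 29.5 CPM in TKO and 3.46 to 3.64 CPM in WT. Tuba3a, a testis tubulin, had 26.7 and 33.7 CPM in STOP, against 22.0, 35.0 and 26.3 CPM in TKO and 4.29 to 8.11 CPM in WT. Dazl, Fkbp6 and Tuba3a were chosen once values were known. Not all genes of the list were silent in WT, where Rnf17 had 72.3 to 87.9 CPM and the listed genes found summed to 650 to 711 CPM. Sycp3 had 4.72 and 5.96 CPM in STOP, against 3.84, 3.23 and 3.60 CPM in TKO and 4.82 to 7.97 CPM in WT. It was called lower in TKO than in WT (adjusted p = 0.0347, edgeR's test). Against WT, Dazl rose in STOP by a log2 fold change of 3.51 (adjusted p = 0.000345) and in TKO by 3.51 (adjusted p = 9.9e-05). Between STOP and TKO, 1 of the 38 genes was higher and 0 were lower at an unadjusted p under 0.05, and the median was 0.08 (0.48 without TKO replicate 3). The 1 gene was Smc1b, a cohesin subunit of meiosis, with 18.6 and 32.0 CPM in STOP, against 16.7, 13.5 and 13.9 CPM in TKO and 2.92 to 5.28 CPM in WT. For 7 of the 38 genes both STOP libraries lay above all TKO libraries, against 9.74% of all genes. Of the Rhox homeobox genes of the X chromosome, 9 of 31 found were tested and 0 were called, at an unadjusted p under 0.05 also 0, and the median was 0.02 (0.26 without TKO replicate 3 and -0.36 without TKO replicate 1). Rhox5 had 276 and 315 CPM in STOP, against 258, 342 and 398 CPM in TKO and 16.0 to 25.3 CPM in WT, a log2 fold change of STOP over TKO of -0.24 ± 0.23 (SE).

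No imprinted gene was called between the mutants with all libraries. In mouse, such genes are expressed from the maternal or the paternal copy according to methylation set in the oocyte or in sperm, and these cells carry the sperm copy alone. Of 18 maternally expressed genes of clusters methylated in the oocyte, 0 were called, 0 were higher and 1 lower at an unadjusted p under 0.05, and the median was 0.21 (0.08 without TKO replicate 3). Grb10, an adaptor that restrains growth factor signalling, had 95.1 and 137 CPM in STOP, against 101, 66.7 and 40.6 CPM in TKO and 14.3 to 23.1 CPM in WT (log2 fold change 0.71 ± 0.31, SE, unadjusted p = 0.051, edgeR's test). The lower gene, Cobl, an actin nucleator, had 122 and 103 CPM in STOP, against 136, 159 and 233 CPM in TKO and 224 to 230 CPM in WT, so the STOP libraries were the lowest of all and TKO replicate 3 was close to WT. The log2 fold change of Cobl was -0.71 ± 0.23 (SE, unadjusted p = 0.0133, edgeR's test). Of 21 paternally expressed genes of such clusters, 0 were called, 2 were higher and 1 lower at an unadjusted p under 0.05, and the median was 0.01 (0.06 without TKO replicate 3). The 2 higher genes, Peg10 and Sgce, are neighbours in one imprinted cluster. Peg10, a gene derived from a retrotransposon and needed in the placenta, had 142 and 312 CPM in STOP, against 36.9, 52.1 and 155 CPM in TKO and 582 to 687 CPM in WT. Its log2 fold change was 1.38 ± 0.56 (SE, unadjusted p = 0.0359, edgeR's test), and 2.33 without TKO replicate 3, where it was called (adjusted p = 0.00691). Sgce, a sarcoglycan, had 2.86 and 4.85 CPM in STOP, against 1.57, 1.66 and 0.941 CPM in TKO and 3.69 to 4.95 CPM in WT, with a log2 fold change of 1.43 ± 0.33 (SE, unadjusted p = 0.00204). For Sgce the libraries did not overlap, and for Peg10 STOP replicate 1 lay below TKO replicate 3. Mest, the lower gene, had 153 and 128 CPM in STOP, against 177, 171 and 170 CPM in TKO and 108 to 131 CPM in WT. Of 8 tested genes of clusters methylated in sperm, 0 were called, 0 were higher and 1 lower at an unadjusted p under 0.05, and the median was -0.35 (-0.34 without TKO replicate 3). The lower gene was Gpr1, a G protein-coupled receptor of the Zdbf2 cluster, with 0.265 and 0.252 CPM in STOP, against 0.556, 0.428 and 0.654 CPM in TKO and 0.715 to 1.08 CPM in WT. The log2 fold change of Gpr1 was -1.12 ± 0.49 (SE, unadjusted p = 0.0489, edgeR's test), and the libraries did not overlap. H19, a noncoding RNA of the Igf2 cluster, had 0.212 and 1.51 CPM in STOP, against 0.101, 0.048 and 0.409 CPM in TKO. Rian, a noncoding RNA of the Dlk1 cluster, had 2.17 and 3.79 CPM in STOP, against 2.68, 5.70 and 3.84 CPM in TKO and 1.13 to 2.03 CPM in WT. The libraries of both mutants overlapped for H19 and Rian.

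The pluripotency factors were present in all libraries. Nanog had 1224 and 1229 CPM in STOP, against 998, 1203 and 1488 CPM in TKO and 1246 to 1459 CPM in WT. Pou5f1 had 662 and 649 CPM in STOP, against 645, 621 and 770 CPM in TKO and 875 to 923 CPM in WT. It was called lower than in WT in both mutants (adjusted p = 0.0196 in STOP and 0.0326 in TKO by edgeR's test). Sox2 had 510 and 556 CPM in STOP, against 548, 580 and 569 CPM in TKO and 499 to 579 CPM in WT. Of the 24 naive and general pluripotency genes, 0 were called, and 1 was higher and 2 lower at an unadjusted p under 0.05. A log2 fold change below 0 was found for 21 of them, against 7759 of the 14959 genes tested. Their median was -0.16 (-0.05 without TKO replicate 3). The 2 lower genes at that p were Utf1 and Esrrb. Esrrb, a nuclear receptor of naive cells, had 512 and 513 CPM in STOP, against 545, 590 and 767 CPM in TKO and 737 to 761 CPM in WT, so TKO replicate 3 was close to WT here too. Of 22 formative and primed epiblast genes, 0 were called, 1 was lower at an unadjusted p under 0.05, and the median was -0.28 (-0.15 without TKO replicate 3). That gene was Cdh2, the N-cadherin gene, with 18.9 and 16.8 CPM in STOP, against 23.2, 26.3 and 22.5 CPM in TKO and 7.87 to 9.10 CPM in WT. Markers of other cell types gave 0 calls. The median log2 fold change was -0.05 for 13 trophectoderm genes (0.35 without TKO replicate 3), 0.15 for 10 primitive endoderm genes (0.07), -0.05 for 6 neural genes (-0.23) and 0.03 for 5 mesoderm genes (-0.01). Of 15 fibroblast markers, which feeder cells would bring, 5 were tested, their median was 0.18 (0.55), and all 15 summed to 11.8 and 16.3 CPM in STOP, against 8.28, 11.6 and 15.1 CPM in TKO and 12.9 to 16.7 CPM in WT. Their part in the results was not tested.

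Genes of hypoxia and glycolysis and genes of the X chromosome set TKO replicate 3 apart from the other TKO libraries. Of the 30 hypoxia and glycolysis genes, 0 were called and 0 had an unadjusted p under 0.05 in either direction by edgeR's test. A log2 fold change above 0 was found for 26 of them, against 48.1% of all genes. Their median was 0.23 (0.05 without TKO replicate 3). The median of these genes, relative to their mean over all 8 libraries on the log2 scale, was 0.20 and 0.57 in STOP, against 0.39, 0.50 and -0.49 in TKO and -0.44 to -0.18 in WT. Bnip3, which clears mitochondria under low oxygen, had 127 and 217 CPM in STOP, against 163, 139 and 24.5 CPM in TKO and 12.7 to 31.0 CPM in WT. For Bnip3, TKO replicate 3 fell within the WT range, and the other TKO libraries within the range of STOP. Over the 584 tested genes of the X chromosome the same measure was -0.23 and -0.16 in STOP, against -0.48, -0.21 and 0.31 in TKO and 0.28 to 0.32 in WT. The STOP libraries thus lay inside the range of the TKO libraries, and TKO replicate 3 lay in the range of WT. With 2 libraries against 3, an exact permutation test cannot give a p below 0.1, so these shifts are given as values.

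Of the autosomes, chromosome 16 differed most between the mutants. The median of its 453 tested genes, on the same measure, was 0.05 and 0.13 in STOP, against 0.02, -0.02 and -0.06 in TKO and -0.02 to -0.01 in WT. Both STOP libraries thus lay above all others, STOP replicate 2 further than STOP replicate 1. The median log2 fold change of STOP over TKO was 0.12 (0.10 without TKO replicate 3), against -0.04 to 0.01 on the other 18 autosomes. Of the 453 genes 0 were called, 21 were higher (4.64%, against 1.15% of all genes) and 3 lower at an unadjusted p under 0.05 by edgeR's test. Both STOP libraries lay above all TKO libraries for 107 of them (23.6%), against 9.74% of all genes. None of the 6 called genes lies on this chromosome.

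**Figure D5:**
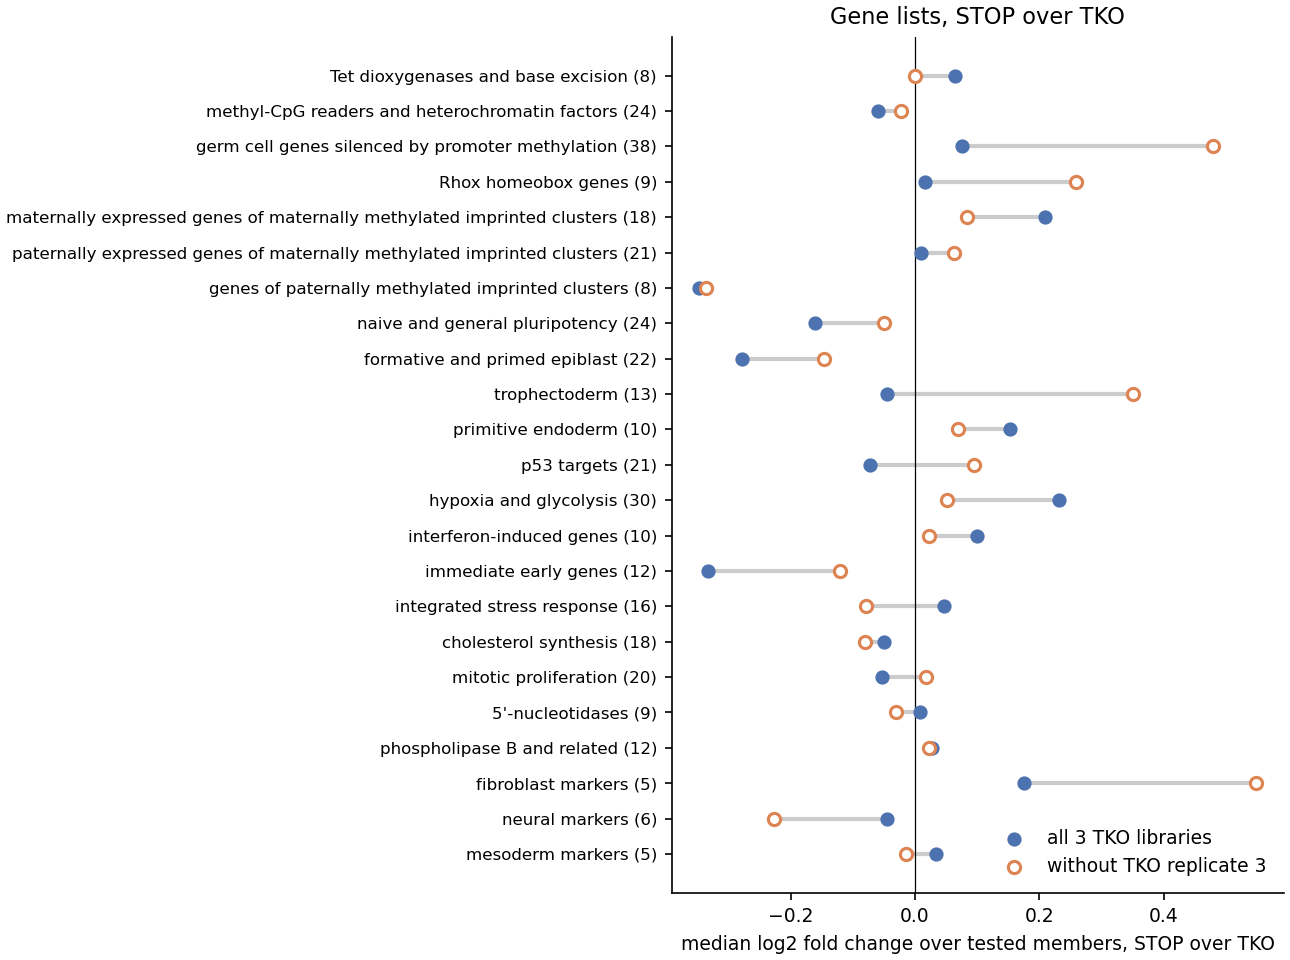
Median log2 fold change of STOP over TKO for 23 gene lists, with the number of tested genes in brackets, in the fit with all 3 TKO libraries (filled) and without TKO replicate 3 (open). Leaving that library out moved the germ cell list to 0.48 and the trophectoderm list to 0.35, and the hypoxia and glycolysis list to 0.05.

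The remaining lists held 0 called genes each. The median was -0.07 for 21 targets of p53 (0.09 without TKO replicate 3), 0.10 for 10 interferon-induced genes (0.02), 0.05 for 16 genes of the integrated stress response (-0.08, and 0.41 without TKO replicate 1), -0.05 for 18 genes of cholesterol synthesis (-0.08) and -0.05 for 20 mitotic genes (0.02). Among the mitotic genes Top2a, a topoisomerase of dividing cells, had 1491 and 1535 CPM in STOP, against 1356, 1347 and 1102 CPM in TKO. The 12 immediate early genes had a median of -0.33 (-0.12), and 11 of them were below 0, against 7759 of the 14959 genes tested. Junb, one of them, had 6.63 and 6.61 CPM in STOP, against 7.93, 10.9 and 12.9 CPM in TKO, with no overlap (unadjusted p = 0.0168, edgeR's test). Of 58 clustered protocadherin genes, whose promoters are often methylated, 36 were tested, and 0 of them had an unadjusted p under 0.05 in either direction by edgeR's test. Their median log2 fold change was -0.11 (-0.13 without TKO replicate 3).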

How the data were processed

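Polyadenylated RNA of haploid ES cells (STOP n = 2, TKO n = 3, WT n = 3) was sequenced. The authors deposited whole-number counts per gene. The submitters' processing notes name Trim Galore 0.6.6, HISAT2 2.1.0, featureCounts 1.6.4, DESeq2 and the build mm10. The sources used here do not give the treatment of strand or of reads with several alignments, so overlapping genes, antisense genes and close copies are uncertain, and 58 tested genes shared their counts in all 8 libraries with another gene.

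Of 25277 gene symbols, 14959 passed filterByExpr (minimum count 10). These were tested in R 4.3.3 with edgeR 4.0.16 (TMM scaling, quasi-likelihood F test), in one fit of the 3 genotypes, with Benjamini-Hochberg adjustment over all of them and a threshold of 0.05. An SE is the log2 fold change divided by the root of its F statistic. CPM use library totals without TMM scaling. Positions came from GENCODE M21 (mm10), which covered 14653 of the tested genes. Of 487 entries in 25 gene lists, 482 were found, some by RefSeq synonyms. The script was tested on simulated data. Intervals and SEs rest on few libraries, of 16.8 to 24.5 M counts.

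The contrast, the genes and the lists were chosen with earlier results of these data known. Genes were named as follows: methyltransferases and partners; called genes and their neighbours; up to 10 uncalled genes each way with the smallest p among those whose libraries did not overlap, at 5 CPM or more; up to 4 genes per list; and genes called under an alternative. Predicted genes (Gm and Rik symbols) and pseudogenes were left out of the up to 10 uncalled genes each way. Dazl, Fkbp6, Tuba3a, Bnip3, Nanog, Pou5f1, Sox2, Grin2c, Hid1, Usp17lb and Cers3 fall outside these choices and were named once values were known. The 14 alternatives were DESeq2 1.42.0 (Wald test), scaling by median of ratios, no filter, STOP and TKO fitted alone, the replicate number as a block, chromosome X genes left out, and each library left out.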

Additional observations from a re-analysis of the deposited data

How the results depend on the processing

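The number of genes called was 6 as reported, 10 with DESeq2 and 4 to 10 with 1 library left out, with 10 reached without TKO replicate 3. It was 4 with STOP and TKO fitted alone, 6 with median-of-ratios scaling, without the filter or without chromosome X genes, and 5 with the replicate block. Dnmt1, Dnmt3a, Dnmt3b and Nt5c were called under all 14 alternatives. The deviations of same-numbered libraries correlated with r of -0.131 (STOP and TKO) to 0.088 (STOP and WT) for replicate 1. For replicates 2 and 3 they correlated with r of 0.105 (STOP and TKO replicate 2) to 0.195 (TKO and WT replicate 3). Differently numbered libraries gave -0.215 to 0.164. As r was not above 0.1 in every same-numbered pair, the numbers were not taken to pair the samples. With 2 STOP libraries, their deviations from the group mean are equal and opposite, so their r values are not separate. The highest r values of all pairs were those of TKO and WT replicates 3 (0.195) and 2 (0.179). These correlations therefore cannot decide whether libraries of the same number shared a batch. Pairing of replicates 2 and 3 alone was not tested. In the replicate block Plb1 was not called (adjusted p = 0.167), and the block gave 0.056 for Nanog and medians of 0.011 for the Tet list and 0.054 for the interferon-induced list. Without chromosome X genes Dazl was at -0.0016, and the Rhox list, all on that chromosome, had no value. With 1 library left out, log2 fold changes that changed sign ranged from -0.15 to 0.23 for Dnmt3l, -0.10 to 0.014 for Uhrf1, -0.019 to 0.26 for Uhrf2, -0.13 to 0.10 for Sumo2, -0.53 to 0.053 for Ppp1cb, -0.15 to 0.75 for Mep1b, -0.17 to 0.23 for Dazl, -0.12 to 0.29 for Fkbp6, -0.10 to 0.25 for Tuba3a, -0.22 to 0.14 for Nanog, -0.18 to 0.039 for Pou5f1 and -0.86 to 0.14 for Tet2. None of these genes but Mep1b was called in any fit. List medians ranged from 0.00068 to 0.15 (Tet), -0.081 to 0.48 (germ cell), -0.36 to 0.26 (Rhox), -0.078 to 0.41 (integrated stress response), 0.051 to 0.45 (hypoxia and glycolysis), -0.18 to 0.094 (p53), -0.014 to 0.55 (fibroblast), -0.23 to 0.16 (neural), -0.52 to -0.16 (sperm-methylated clusters), 0.084 to 0.40 (maternally expressed), -0.31 to -0.15 (formative), 1.17 to 2.89 (2-cell), -0.16 to 0.35 (trophectoderm), -0.12 to 0.29 (primitive endoderm), -0.014 to 0.15 (interferon), -0.48 to -0.12 (immediate early), -0.098 to 0.012 (cholesterol), -0.071 to 0.018 (mitotic), -0.097 to 0.038 (nucleotidases) and -0.12 to 0.081 (mesoderm). Leaving out a library leaves 1 STOP library in some fits, which is then assumed to vary like the other groups. The cause of these changes was not tested. Low transcripts such as the 2-cell genes, mostly under 3 CPM, are limited by depth.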

Other observations

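For some genes a single TKO library stood apart. Cers3, a ceramide synthase, had 0.106 and 0.202 CPM in STOP, against 0.101, 14.8 and 0.327 CPM in TKO and 0.344 to 0.775 CPM in WT, so TKO replicate 2 stood alone. Next to Plb1 on chromosome 5, 2 genes were high in TKO replicate 3. Ppp1cb, a catalytic subunit of protein phosphatase, had 492 and 517 CPM in STOP, against 505, 461 and 875 CPM in TKO and 439 to 494 CPM in WT. Yes1, a kinase of the Src family, had 274 and 245 CPM in STOP, against 257, 281 and 895 CPM in TKO and 378 to 433 CPM in WT. Mep1b, the gene of a meprin protease subunit, had 17.4 and 21.3 CPM in STOP, against 11.7, 11.2 and 28.4 CPM in TKO and 105 to 111 CPM in WT, and it was called higher in STOP without TKO replicate 3 (log2 fold change 0.75, adjusted p = 0.048, edgeR) and not with it (0.09, adjusted p = 0.966).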
